A study of Mus musculus with 10 samples.

Results

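The BMP, TGF-beta and activin signalling genes of the dentate gyrus were followed from 4 to 12 weeks of age. The group holds 41 genes, picked by their function in the pathway with earlier results of these data known. They are 13 ligands, 12 receptors, 4 secreted antagonists, 8 Smads and 4 Id genes. Each was represented by a probe set whose platform annotation names that gene alone. All 41 had exactly 1 such probe set among the 19752 genes measured. The samples were both dentate gyri of mice of a strain written C56BL/6J in the labels, at 4, 6, 8, 10 and 12 weeks of age, with 2 arrays at each age and no treatment, transgene or mutation named. The tissue was micro-dissected to leave out the rest of the hippocampus, per the labels' protocols. Nothing in the labels tells whether both arrays of one age hold RNA of different mice or of a pool. The p-values therefore rest on array-to-array spread that could be technical. Values are log2 expression levels as deposited.

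These proteins form one of the main families of secreted growth factors. A dimeric ligand brings together type I and type II receptor kinases, the type I receptor phosphorylates receptor-regulated Smads, and these enter the nucleus with Smad4. BMP receptors act through Smad1, Smad5 and Smad9, and TGF-beta and activin receptors through Smad2 and Smad3; Smad6 and Smad7 inhibit the pathway, and the Id genes are classical direct targets of the BMP branch. In the adult mouse dentate gyrus BMP signalling is known for holding neural stem cells in quiescence, and the antagonist noggin for opposing it.

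Granule cell markers stood high on all arrays, with Prox1 between 12.15 and 12.38, Calb1 between 12.44 and 12.73 and C1ql2 between 11.43 and 11.74. The labels give the sex as female, but Xist lay between 5.41 and 6.02, below the dim reference of 7.01, and the Y-linked gene Kdm5d between 8.89 and 9.20. The Y-linked genes Uty (9.10 to 9.34) and Eif2s3y (8.59 to 9.16) were also above that reference. These are the levels of male tissue on all 10 arrays, against the label. The dim reference is the 95th percentile of 1207 olfactory, vomeronasal and trace amine receptor genes, averaged over the arrays. One array, 6 weeks replicate 1, stood apart in the choroid plexus gene Ttr, at 13.77 against 8.87 to 10.15 on the others, and 8 weeks replicate 1 correlated least with the rest. Leaving out both kept the count of 3 genes past the trend described next. Of the 41 genes only Bmp2 had a mean under the dim reference, against 27.1% of all genes.

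Few of the 41 genes passed a test for change with age. With 2 arrays an age, a gene that did not pass may still have changed. In limma's linear trend over age, with Benjamini-Hochberg adjustment over all 19752 genes, 2 fell (Bmp4 and Id3) and 1 rose (Acvr1c) at an adjusted p under 0.05. That is 3 of 41, where 0.82% of all genes passed (0.673% lower and 0.147% higher with age). The 41 genes were chosen with earlier results known, so this and later counts are no independent comparison with all genes. At an unadjusted p under 0.05 the count was 7 of 41, against 11.7% of all genes; Gdf10, Tgfbr3, Smad3 and Id1 were the others. The trend is given throughout as the fitted log2 change over the 8 weeks. Its median over the 41 genes was 0.04, beside 0.00 over all genes, and 22 coefficients were positive and 19 negative, beside 51.2% positive over all genes. By role the medians were −0.08 for the ligands, 0.07 for the receptors, 0.04 for the antagonists, 0.10 for the Smads and −0.19 for the Id genes. Absolute changes above 0.2 were seen in 6 of the 41, against 10.1% of all genes.

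**Figure D1:**
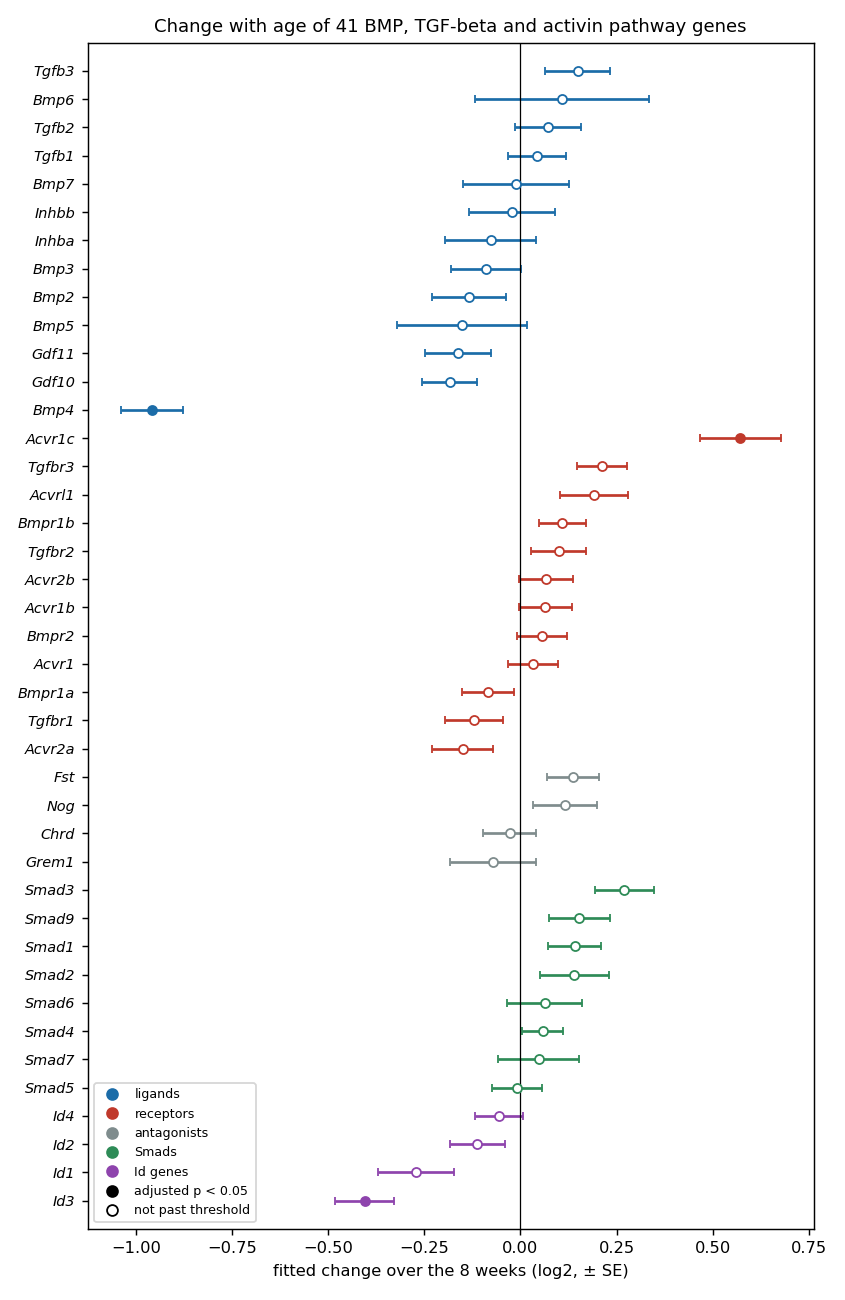
Fitted log2 change of each of the 41 genes over the 8 weeks between 4 and 12 weeks of age (horizontal axis, with its SE), grouped by role and sorted within it. Filled points passed an adjusted p of 0.05 in limma over all genes: Bmp4 at −0.96, Acvr1c at 0.57 and Id3 at −0.40; the open points of the other 38 genes lie between −0.27 and 0.27.

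The contrast of 12 with 4 weeks shares its arrays with the trend and is no independent check of it. It called 2 of the 41 genes, Acvr1c as higher and Bmp4 as lower at 12 weeks, where 0.516% of all genes passed (0.127% higher and 0.39% lower). The moderated F-test for any difference among the ages called only Bmp4 among the 41, where 0.167% of all genes passed. Without adjustment, 12 against 4 weeks held 9 of the 41 genes at a limma p under 0.05, where 9.57% of all genes did. The F-test likewise held 9 of the 41, where 8.46% of all genes did. None of the 41 genes passed in any of the 4 successive steps in limma, and neither did any other gene (0% of all genes). At an unadjusted p under 0.05 the steps held 6 of the 41 genes (6 against 4 weeks), 2 (8 against 6), 6 (10 against 8) and 7 (12 against 10), where 4.13%, 6.25%, 4.79% and 5.59% of all genes did.

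The 12-week and 4-week arrays did not overlap in 33 of the 41 genes, in 19 with both 12-week arrays above and in 14 with both below. The background was 43.7% of all genes, and 47% of the genes at or above the dim reference. Whether this share differs between the 41 genes and others was not tested. The age means moved in 1 direction at every step in 5 of the 41 genes, downward in Bmp4, Gdf11 and Id3 and upward in Bmpr1b and Smad1, against 3.39% of all genes (2.23% downward and 1.16% upward).

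**Figure D2:**
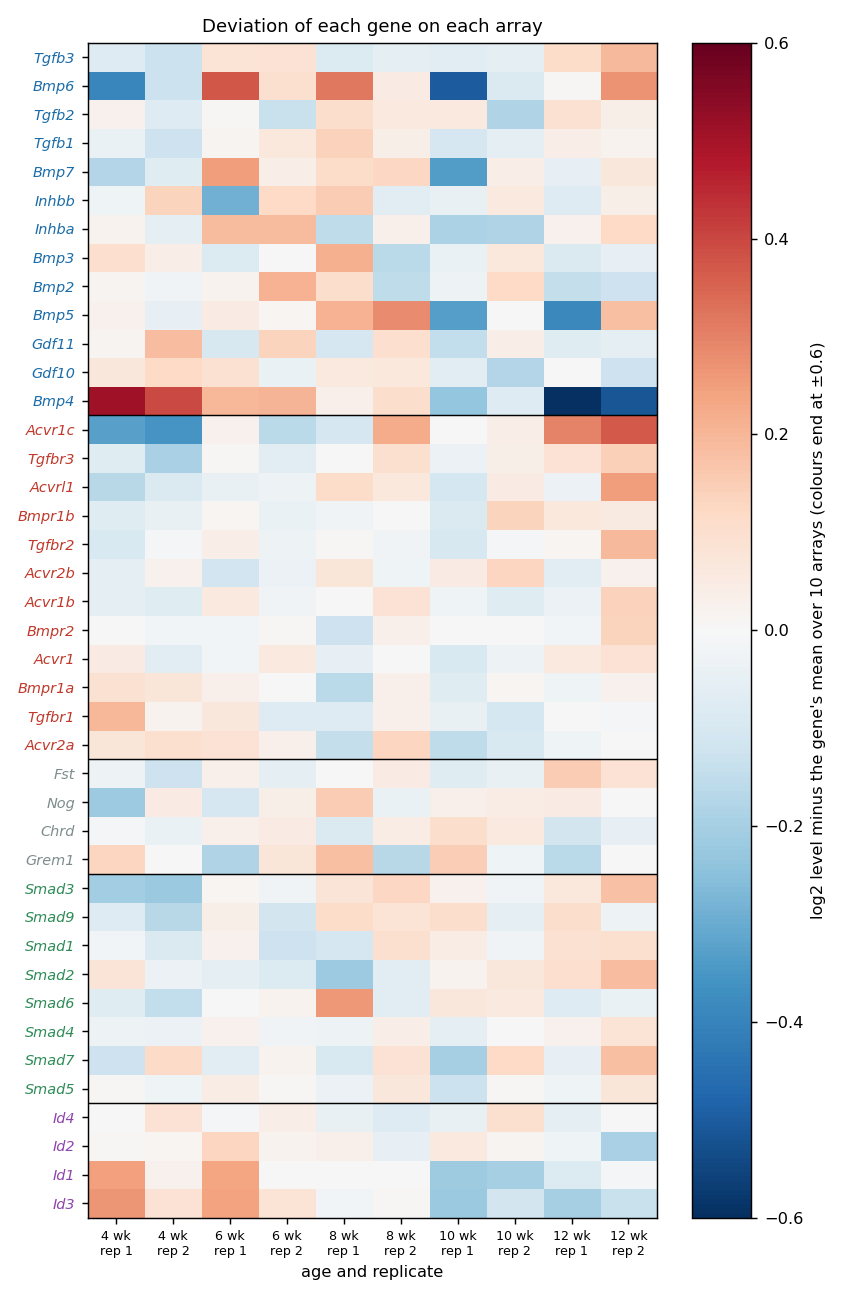
Deviation of each gene from its own mean over the 10 arrays (colour, log2 units, ending at 0.6 on either side), with the arrays in order of age from left to right and the genes grouped by role. Bmp4 goes from above to below its mean with age and Acvr1c the other way, whereas Bmp5, Bmp6 and Bmp7 are low together on the array of 10 weeks replicate 1.

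Among the ligands only Bmp4 passed the trend. This gene encodes a secreted BMP of the subgroup it shares with Bmp2 (protein-coding, chromosome 14, 46383525 to 46390669 in RefSeq's annotation of GRCm38.p6). Its level was 8.93 and 8.82 at 4 weeks, 8.62 and 8.63 at 6 weeks, 8.45 and 8.53 at 8 weeks, 8.19 and 8.35 at 10 weeks and 7.81 and 7.91 at 12 weeks. The 5 ages did not overlap: both arrays of each later age lay below both arrays of the age before, at every step. The fitted change was −0.96 ± 0.08 (SE), a 1.94-fold fall (limma, adjusted p = 2.6e-04). Bmp4 averaged 7.86 ± 0.07 at 12 weeks and 8.88 ± 0.08 at 4 weeks (SD, n = 2 each), a difference of −1.02 ± 0.08 (SE, limma adjusted p = 0.0010). The step differences were −0.25 (6 minus 4 weeks), −0.13 (8 minus 6), −0.22 (10 minus 8) and −0.41 (12 minus 10), none of them past the threshold by itself (lowest adjusted p in limma, 0.46). The trend passed in all 23 alternative fits, with changes from −1.01 to −0.78; the F-test did not pass without either 4-week or either 12-week array (adjusted p from 0.077 to 0.12).

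**Figure D3:**
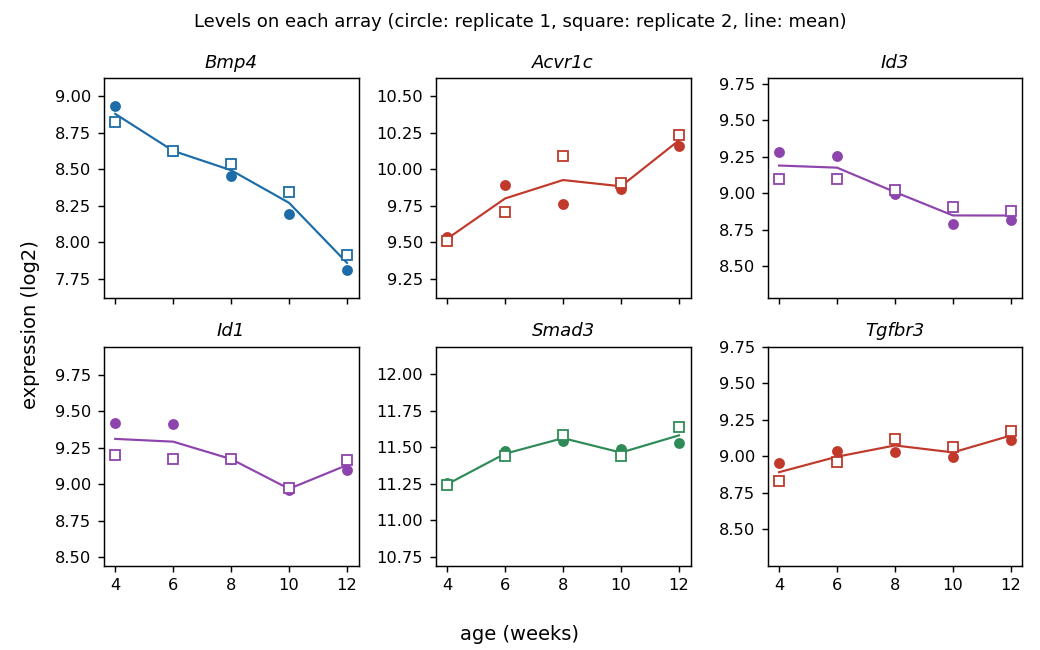
Log2 level on each array against age in weeks for the 3 genes that passed the trend (Bmp4, Acvr1c and Id3) and for Id1, Smad3 and Tgfbr3, which did not. Every panel spans 1.5 log2 units, circles are replicate 1, squares replicate 2 and lines join the means of 2 arrays: Bmp4 declines at every age, Acvr1c is lowest at 4 and highest at 12 weeks, and Id3 is lower from 8 weeks on.

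Bmp4 is also known in the mouse brain as a gene of oligodendrocyte precursors committed to differentiate. Of the 4 listed markers of newly forming oligodendrocytes, 3 fell with age. Enpp6, a choline phosphodiesterase, stood at 8.65 and 8.66 at 4 weeks, 7.98 and 8.09 at 6 weeks, 7.66 and 7.77 at 8 weeks, 7.43 and 7.44 at 10 weeks and 7.43 and 7.53 at 12 weeks and changed by −1.18 ± 0.15. Gpr17, an orphan receptor of these cells, changed by −0.77 ± 0.09, Bcas1, a myelin-associated protein, by −0.40 ± 0.08, and Itpr2, a calcium release channel, missed the threshold at −0.10 ± 0.10 (limma adjusted p = 0.80). Bcas1 lost its call in 13 of 23 alternatives, Gpr17 in 2 and Enpp6 in 1. The summed log2 level of the 4 markers was 36.62 to 36.70 at 4 weeks, 35.51 to 35.52 at 6 weeks, 34.55 to 34.88 at 8 weeks, 34.35 to 34.60 at 10 weeks and 33.99 to 34.25 at 12 weeks. Of the 6 listed markers of oligodendrocyte precursors Olig1 and Olig2 fell, and the other 4 (Pdgfra, Cspg4, Sox10 and Ptprz1) did not pass. The sum of all 6 was 59.32 to 59.42 at 4 weeks, 58.98 to 59.15 at 6 weeks and 58.72 to 58.80 at 8 weeks. It was 58.35 to 58.59 at 10 weeks and 57.88 to 58.07 at 12 weeks. Of 6 measured markers of myelinating oligodendrocytes 4 fell, and their sum was 66.69 to 66.91 at 4 weeks, 65.69 to 66.36 at 6 weeks, 64.02 to 64.76 at 8 weeks, 63.72 to 64.19 at 10 weeks and 63.46 to 63.57 at 12 weeks. None of these markers was dim. The part of these cells in the change of Bmp4 was not tested, and in tissue RNA fewer cells of a type and less RNA per cell cannot be told apart.

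**Figure D4:**
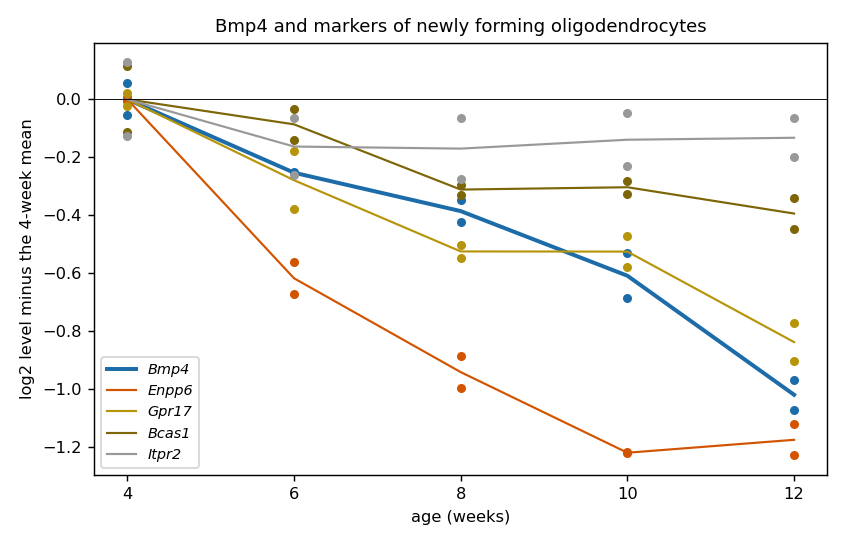
Log2 level minus the mean of the 4-week arrays (vertical axis) against age in weeks for Bmp4 and the 4 markers of newly forming oligodendrocytes; points are arrays and lines join the means of 2 arrays. Enpp6 had most of its decline by 8 weeks, whereas Bmp4 had its largest step between 10 and 12 weeks; Itpr2 stays near its first level.

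Bmp2, the closest relative of Bmp4, had a fitted change of −0.13 ± 0.10 on a dim probe set, where changes can be understated. No comparison of its change with that of Bmp4 is given for that reason.

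Gdf10, a BMP3-like ligand, missed the threshold at −0.18 ± 0.07 (limma adjusted p = 0.32). It lay at 9.78 and 9.83 at 4 weeks, 9.80 and 9.67 at 6 weeks, 9.77 and 9.78 at 8 weeks, 9.64 and 9.53 at 10 weeks and 9.71 and 9.58 at 12 weeks. The 10- and 12-week arrays were all below the 4-week arrays, and 1 of them, 12 weeks replicate 1, lay between the 6-week arrays. Gdf11, a ligand of the activin branch that restrains neurogenesis in the mouse olfactory epithelium, had 9.65 and 9.81 at 4 weeks, 9.53 and 9.76 at 6 weeks, 9.53 and 9.73 at 8 weeks, 9.48 and 9.67 at 10 weeks and 9.55 and 9.57 at 12 weeks, with a change of −0.16 ± 0.09 (limma adjusted p = 0.51). Its replicates at 6, 8 and 10 weeks lay farther apart than the means of successive ages. Tgfb3, a TGF-beta isoform, showed 8.63 and 8.58 at 4 weeks, 8.79 and 8.79 at 6 weeks, 8.63 and 8.65 at 8 weeks, 8.64 and 8.65 at 10 weeks and 8.82 and 8.90 at 12 weeks, a change of 0.15 ± 0.09 (limma adjusted p = 0.56). Its 6- and 12-week arrays formed the upper group and the other 6 arrays lay between 8.58 and 8.65.

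The other TGF-beta isoforms had changes of 0.04 ± 0.08 (Tgfb1) and 0.07 ± 0.09 (Tgfb2). For the activin subunits Inhba and Inhbb they were −0.08 ± 0.12 and −0.02 ± 0.11, and for Bmp3 −0.09 ± 0.09. None of these passed (limma adjusted p from 0.79 to 0.97). Inhba, the activin A subunit induced by neuronal activity, did not follow a line: it stood at 9.25 and 9.18 at 4 weeks, 9.42 and 9.42 at 6 weeks, 9.08 and 9.26 at 8 weeks, 9.04 and 9.05 at 10 weeks and 9.26 and 9.35 at 12 weeks. Its 6-week arrays were the highest and its 10-week arrays the lowest, a pattern the F-test did not call (limma adjusted p = 0.43). Without the array of 8 weeks replicate 2 8 against 6 weeks was called for Inhba (−0.34, limma adjusted p = 0.044), in a fit that called 1079 genes at that step and rests on 1 array at 8 weeks.

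Bmp5, Bmp6 and Bmp7, close relatives within the BMP family, had wide ranges over the arrays without a trend that passed. They are described because of that spread, seen in the values. Bmp6 stood at 8.87 and 9.13 at 4 weeks, 9.63 and 9.36 at 6 weeks, 9.57 and 9.31 at 8 weeks, 8.76 and 9.17 at 10 weeks and 9.27 and 9.53 at 12 weeks, a range of 0.87 log2 units that is wider than that of 98.7% of all genes. Bmp7 stood at 8.62 and 8.72 at 4 weeks, 9.04 and 8.83 at 6 weeks, 8.90 and 8.91 at 8 weeks, 8.46 and 8.83 at 10 weeks and 8.74 and 8.86 at 12 weeks. Bmp5, close to the dim reference, stood at 7.27 and 7.20 at 4 weeks, 7.30 and 7.26 at 6 weeks, 7.46 and 7.53 at 8 weeks, 6.92 and 7.25 at 10 weeks and 6.86 and 7.43 at 12 weeks. All 3 were low on the array of 10 weeks replicate 1, where Bmp6 and Bmp7 had their lowest levels. The fitted changes were −0.15 ± 0.17 for Bmp5, 0.11 ± 0.23 for Bmp6 and −0.01 ± 0.14 for Bmp7, none past the threshold (limma adjusted p from 0.81 to 0.99), and all 3 changed sign when single arrays were left out.

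Meningeal fibroblasts are a known source of BMPs around the brain, and 2 of their transporter genes, picked after their values were seen, are set beside these ligands. Slc6a13 had 8.53 and 8.71 at 4 weeks, 9.37 and 9.08 at 6 weeks, 9.17 and 9.02 at 8 weeks, 8.31 and 8.93 at 10 weeks and 9.10 and 9.66 at 12 weeks. It was lowest on the array of 10 weeks replicate 1, as were Bmp6 and Bmp7, and so was Slc22a6 at 7.98. Of the other 4 meningeal markers Col1a2 was lowest there too, whereas Col3a1, Lum and Ogn were not. Of all 6 markers 0 passed the trend (3 positive and 3 negative changes) and none was dim. Their summed log2 level was 48.95 to 49.38 at 4 weeks, 50.16 to 51.34 at 6 weeks, 50.38 to 50.67 at 8 weeks, 48.75 to 49.89 at 10 weeks and 49.30 to 51.18 at 12 weeks. The lowest meningeal sum was on a 10-week array, but the ranges at 4 and 10 weeks overlapped. Vessel cells likewise had their lowest sum on a 10-week array. The 7 markers of mural cells, the cells that wrap vessels, had sums of 61.93 to 62.37 at 4 weeks and 63.18 to 63.43 at 6 weeks. The mural sums were 62.76 to 63.18 at 8 weeks, 61.54 to 62.62 at 10 weeks and 62.35 to 64.35 at 12 weeks. Here too the ranges at 4 and 10 weeks overlapped, and 0 of 7 passed the trend. Bmp6 and Bmp7 were highest on the array of 6 weeks replicate 1, where the choroid plexus gene Ttr stood at 13.77. Sums of the 7 choroid plexus markers ran from 52.59 to 53.02 at 4 weeks and from 54.26 to 64.79 at 6 weeks. They were 54.34 to 54.57 at 8 weeks, 54.06 to 54.62 at 10 weeks and 53.44 to 54.21 at 12 weeks. Of these 7 markers 0 passed the trend and 1 was dim. The part of meninges, vessels or choroid plexus in the levels of Bmp5, Bmp6 and Bmp7 was not tested.

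**Figure D5:**
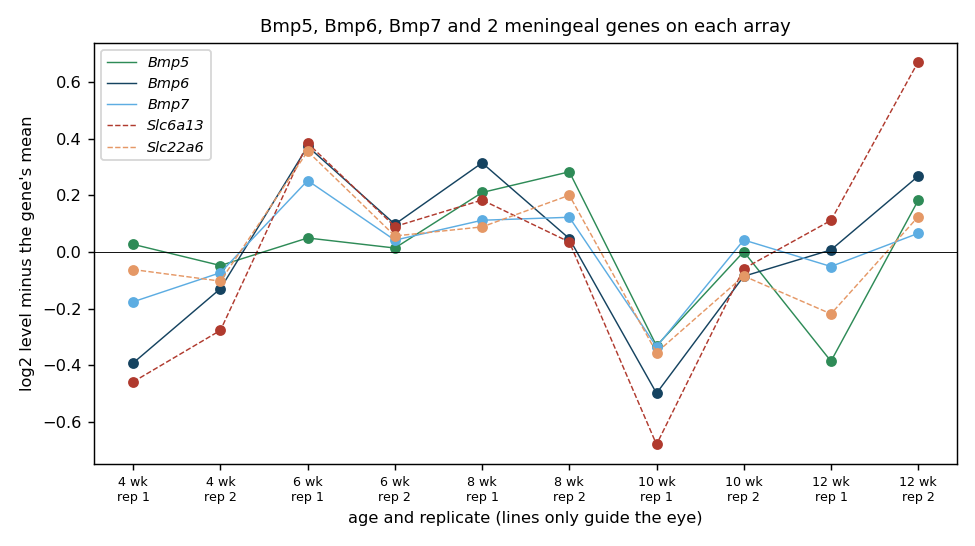
Log2 level of Bmp5, Bmp6 and Bmp7 (solid lines) and of the meningeal genes Slc6a13 and Slc22a6 (dashed lines) on each of the 10 arrays, less each gene's own mean. The array of 10 weeks replicate 1 is the lowest for all of them but Bmp5, and 6 weeks replicate 1 is above the mean for all 5. The meningeal genes were picked from 6 listed markers after their values were seen. Col3a1, Lum and Ogn, which are not plotted, were not lowest on the array of 10 weeks replicate 1.

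Among the receptors only Acvr1c passed the trend. It encodes ALK7, a type I receptor for nodal, activin and related GDF ligands that signals through Smad2 and Smad3 (protein-coding, chromosome 2, 58267453 to 58357896, GRCm38.p6). Its level was 9.54 and 9.51 at 4 weeks, 9.89 and 9.71 at 6 weeks, 9.76 and 10.09 at 8 weeks, 9.86 and 9.90 at 10 weeks and 10.16 and 10.23 at 12 weeks. Both 4-week arrays lay below all the others and both 12-week arrays above all the others, while the ages between overlapped and the 8-week arrays lay far apart. The fitted change was 0.57 ± 0.11 (SE), a 1.49-fold rise (limma, adjusted p = 0.030). Acvr1c averaged 10.20 ± 0.05 at 12 weeks and 9.53 ± 0.02 at 4 weeks (SD, n = 2 each), a difference of 0.67 ± 0.11 (limma, adjusted p = 0.036). The trend did not pass in 7 of 23 alternatives, although the change stayed between 0.46 and 0.61: without either 4-week array (adjusted p = 0.15 and 0.14), without 6 weeks replicate 2 (0.061), without either 12-week array (0.10 and 0.11), and without both arrays of 12 weeks (0.30) or of 4 weeks (0.56). The difference between 12 and 4 weeks did not pass with the replicate block (adjusted p = 0.076), with the mean of the choroid plexus genes as a covariate (0.055), or without any 1 of the 4-, 10- or 12-week arrays (0.092 to 0.28).

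The other 6 type I receptors had changes between −0.12 and 0.19, none past the threshold. Pairs of genes of one family were compared by the trend of their difference within each array, which does not depend on how arrays were centred, in a two-sided exact permutation test of age over the arrays. The adjustment ran over 28 pairs, chosen after the values were seen: the 21 pairs of type I receptors, the 6 pairs of Id genes, and Bmp4 with Bmp2, which is not read because Bmp2 was dim. Acvr1c and Id3 had passed the trend on these same arrays, so larger changes than in relatives that had not passed were partly fixed beforehand. The p-values of the pairs do not account for that choice and are no independent support for the trend. All comparisons of Acvr1c share its values. The change of Acvr1c exceeded that of Acvr1b, the activin receptor ALK4, by 0.51 (95% interval 0.33 to 0.68, adjusted p = 0.0025), and that of Tgfbr1, the TGF-beta receptor ALK5, by 0.69 (95% interval 0.44 to 0.94, adjusted p = 0.0025). Against the BMP type I receptors the differences were 0.66 (95% interval 0.41 to 0.90, adjusted p = 0.0025) for Bmpr1a, 0.54 (95% interval 0.29 to 0.78, adjusted p = 0.0079) for Acvr1 and 0.46 (95% interval 0.20 to 0.73, adjusted p = 0.026) for Bmpr1b, by the same exact permutation test. The difference from Acvrl1, an endothelial type I receptor, was 0.38 (95% interval 0.11 to 0.66, adjusted p = 0.053) and missed the threshold, but it passed with quantile normalization (adjusted p = 0.027, exact permutation) and without 6 weeks replicate 1 (0.043) or 8 weeks replicate 1 (0.031). In the leave-one-out fits the difference from Bmpr1b lost its call without either 4-week or either 12-week array (adjusted p from 0.056 to 0.084, exact permutation). Of the 15 pairs of type I receptors without Acvr1c, 0 passed after adjustment.

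Tgfbr3 encodes betaglycan, a co-receptor that presents TGF-beta2 and inhibin. It stood at 8.95 and 8.83 at 4 weeks, 9.03 and 8.96 at 6 weeks, 9.03 and 9.12 at 8 weeks, 8.99 and 9.06 at 10 weeks and 9.11 and 9.17 at 12 weeks, with a change of 0.21 ± 0.06 that missed the threshold (limma adjusted p = 0.19). Its 12-week arrays lay above all 4-, 6- and 10-week arrays, but not clear of the 8-week ones. Acvrl1, the endothelial receptor, had 8.27 and 8.35 at 4 weeks, 8.39 and 8.41 at 6 weeks, 8.54 and 8.50 at 8 weeks, 8.33 and 8.48 at 10 weeks and 8.40 and 8.69 at 12 weeks and a change of 0.19 ± 0.09 (limma adjusted p = 0.44). Its 12-week arrays stood above those of 4 weeks, but lay far apart from each other. The endothelial markers had a summed log2 level of 60.44 to 60.97 at 4 weeks, 61.96 to 62.38 at 6 weeks and 61.65 to 62.05 at 8 weeks. It was 60.40 to 61.28 at 10 weeks and 61.33 to 63.40 at 12 weeks, and 0 of 7 markers passed the trend. The highest sum and the highest Acvrl1 level were both at 12 weeks. The lowest sum was on a 10-week array and the lowest Acvrl1 level on a 4-week array, and the sums at 4 and 10 weeks overlapped. The part of endothelium in the level of Acvrl1 was not tested. Acvr2a, a type II receptor for activins, had 10.63 and 10.66 at 4 weeks, 10.64 and 10.59 at 6 weeks, 10.42 and 10.69 at 8 weeks, 10.40 and 10.47 at 10 weeks and 10.53 and 10.56 at 12 weeks, and its change of −0.15 ± 0.08 did not pass (limma adjusted p = 0.52). Its lowest values were those of 8 weeks replicate 1 and of both 10-week arrays.

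For the remaining receptors the changes were 0.06 ± 0.06 for Bmpr2, the main type II receptor for BMPs, 0.07 ± 0.07 for Acvr2b, 0.10 ± 0.07 for Tgfbr2, the TGF-beta type II receptor, −0.08 ± 0.07 for Bmpr1a and 0.11 ± 0.06 for Bmpr1b. Those of Acvr1, Acvr1b and Tgfbr1 were 0.03 ± 0.06, 0.06 ± 0.07 and −0.12 ± 0.07. None passed (limma adjusted p from 0.55 to 0.91). Of 6 granule cell markers, Ntng1 rose (0.55 ± 0.09), Tdo2 fell (−0.44 ± 0.08) and the other 4 did not pass. Their summed log2 level was 66.95 to 67.04 at 4 weeks, 67.03 to 67.53 at 6 weeks, 66.91 to 67.60 at 8 weeks, 66.77 to 67.22 at 10 weeks and 67.15 to 67.58 at 12 weeks, and none was dim. The part of these cells, or of the neuroblasts described with the Id genes, in the rise of Acvr1c was not tested.

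None of the 4 secreted antagonists passed the trend, the F-test, the comparison of 12 with 4 weeks or a step in limma. Fst, follistatin, which binds activins, had 8.51 and 8.42 at 4 weeks, 8.57 and 8.49 at 6 weeks, 8.55 and 8.59 at 8 weeks, 8.47 and 8.49 at 10 weeks and 8.69 and 8.63 at 12 weeks, with a change of 0.14 ± 0.07 (limma adjusted p = 0.47). Both 12-week arrays were above all the others. Nog, noggin, which binds BMP2, BMP4 and BMP7, had 7.91 and 8.18 at 4 weeks, 8.03 and 8.16 at 6 weeks, 8.28 and 8.09 at 8 weeks, 8.16 and 8.17 at 10 weeks and 8.18 and 8.13 at 12 weeks, with a change of 0.12 ± 0.08 (limma adjusted p = 0.67). The 4-week arrays of Nog lay apart and overlapped with the 12-week arrays. Grem1, gremlin, had 7.86 and 7.73 at 4 weeks, 7.55 and 7.81 at 6 weeks, 7.91 and 7.57 at 8 weeks, 7.88 and 7.71 at 10 weeks and 7.57 and 7.73 at 12 weeks, with a change of −0.07 ± 0.11 (limma adjusted p = 0.88), and its replicates differed by as much as its ages. Chrd, chordin, averaged 8.75 ± 0.04 at 12 weeks and 8.80 ± 0.02 at 4 weeks (SD, n = 2 each), with a change of −0.03 ± 0.07.

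Of the 8 Smads 7 had positive changes, beside 51.2% of all genes, but none passed over all genes. The signs of Smad2, Smad5, Smad6 and Smad7 changed in some alternative fit. Smad3, the receptor-regulated Smad of the TGF-beta and activin branch, came nearest, with 11.25 and 11.24 at 4 weeks, 11.47 and 11.44 at 6 weeks, 11.54 and 11.58 at 8 weeks, 11.49 and 11.44 at 10 weeks and 11.53 and 11.64 at 12 weeks. Both 4-week arrays stood below the other 8, which lay between 11.44 and 11.64. The fitted change was 0.27 ± 0.08 (limma adjusted p = 0.16), and most of the difference lay between 4 and 6 weeks (0.21 ± 0.07), a step that did not pass in limma (unadjusted p = 0.011). Smad3 averaged 11.58 ± 0.08 at 12 weeks and 11.25 ± 0.01 at 4 weeks (SD, n = 2 each), a difference of 0.33 ± 0.07 (limma adjusted p = 0.082). With a variance trend by intensity the trend passed (adjusted p = 0.047), as did the F-test (0.030), and 12 against 4 weeks passed in 4 alternatives (adjusted p from 0.0048 to 0.038).

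Smad1 and Smad9, of the BMP branch, had small positive changes. Smad1 stood at 9.49 and 9.42 at 4 weeks, 9.54 and 9.39 at 6 weeks, 9.41 and 9.61 at 8 weeks, 9.56 and 9.49 at 10 weeks and 9.60 and 9.61 at 12 weeks, a change of 0.14 ± 0.07 (limma adjusted p = 0.46), and its 12-week arrays were above those of 4 weeks but overlapped with those of 8. Smad9 stood at 8.90 and 8.81 at 4 weeks, 9.01 and 8.87 at 6 weeks, 9.08 and 9.06 at 8 weeks, 9.08 and 8.92 at 10 weeks and 9.08 and 8.95 at 12 weeks, with a change of 0.15 ± 0.08 (limma adjusted p = 0.50), and its later ages overlapped. Smad5, the third of this branch, had −0.01 ± 0.06. Smad2 had 0.14 ± 0.09 and Smad4, the common partner, 0.06 ± 0.05. Smad4 had the narrowest range of the 41 genes, 0.14 log2 units over the 10 arrays. For the inhibitory Smads the changes were 0.06 ± 0.10 (Smad6) and 0.05 ± 0.10 (Smad7).

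All 4 Id genes had negative changes, as had 9631 of all 19752 genes, and 1 of the 4 passed. Id proteins are helix-loop-helix proteins without a DNA-binding region that bind E proteins and keep them from pairing with proneural factors. Id3 (protein-coding, chromosome 4, 136143822 to 136145392, GRCm38.p6) stood at 9.28 and 9.10 at 4 weeks, 9.26 and 9.09 at 6 weeks, 8.997 and 9.02 at 8 weeks, 8.79 and 8.91 at 10 weeks and 8.81 and 8.88 at 12 weeks. The 4- and 6-week arrays all lay above those of 8, 10 and 12 weeks, and the 10- and 12-week arrays overlapped with each other. The fitted change was −0.40 ± 0.08 (SE), a 1.32-fold fall (limma, adjusted p = 0.034). Id3 averaged 8.85 ± 0.05 at 12 weeks and 9.19 ± 0.13 at 4 weeks (SD, n = 2 each), and this difference of −0.34 ± 0.09 did not pass (limma adjusted p = 0.19). The trend did not pass in 9 of 23 alternatives, with changes between −0.48 and −0.36 in all 23. These were the fits without 4 weeks replicate 1 (adjusted p = 0.18), 6 weeks replicate 2 (0.067), 8 weeks replicate 2 (0.053), either 10-week array (0.065 and 0.072), either 12-week array (0.11 and 0.063), both arrays of 12 weeks (0.16) and both of 4 weeks (0.34).

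Id1 resembled Id3 array by array, at 9.42 and 9.20 at 4 weeks, 9.41 and 9.17 at 6 weeks, 9.17 and 9.17 at 8 weeks, 8.96 and 8.98 at 10 weeks and 9.10 and 9.17 at 12 weeks. On both genes replicate 1 was the higher array at 4 and at 6 weeks and the lower one at 10 and at 12 weeks. The change of Id1 was −0.27 ± 0.10 (limma adjusted p = 0.28). Id2 stood at 12.62 and 12.63 at 4 weeks, 12.74 and 12.64 at 6 weeks, 12.64 and 12.57 at 8 weeks, 12.67 and 12.63 at 10 weeks and 12.59 and 12.42 at 12 weeks, with a change of −0.11 ± 0.07. Id4 stood at 10.83 and 10.91 at 4 weeks, 10.82 and 10.86 at 6 weeks, 10.78 and 10.75 at 8 weeks, 10.78 and 10.92 at 10 weeks and 10.76 and 10.83 at 12 weeks, with a change of −0.06 ± 0.06, and in both genes the ages between overlapped with the ends of the series. The difference between the changes of Id3 and Id4 was −0.35 (95% interval −0.58 to −0.12, adjusted p = 0.039) in the exact permutation test within arrays. Id3 had passed the trend on these same arrays, so a larger change than in its relatives was partly fixed beforehand. The p-values of its pairs do not account for that and are no independent support. In the same test the difference from Id2 was −0.29 (95% interval −0.54 to −0.05, adjusted p = 0.072) and that from Id1 −0.13 (95% interval −0.25 to −0.01, adjusted p = 0.081), and neither passed. Each passed in 1 of 11 alternatives, Id2 without 12 weeks replicate 2 (−0.41) and Id1 without 10 weeks replicate 2 (−0.16). The call of Id3 against Id4 was lost in 8 of the 10 leave-one-out fits (adjusted p from 0.050 to 0.11, exact permutation).

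Id3 and Id1 are expressed by stem cells, astrocytes and vessels in the mouse brain. Of 5 measured radial glia-like markers Lpar1 (−0.49 ± 0.08) and Nes (−0.52 ± 0.08) fell, the other 3 did not pass, and 1 of the 5 was dim. The summed log2 level was 45.04 to 45.36 at 4 weeks, 44.48 to 44.65 at 6 weeks and 44.32 to 44.54 at 8 weeks. It was 43.55 to 43.70 at 10 weeks and 43.50 to 43.85 at 12 weeks, and such a sum is no count of cells. Of 8 astrocyte markers 0 passed, with a sum of 93.12 to 93.24 at 4 weeks, 93.45 to 93.85 at 6 weeks, 92.80 to 93.10 at 8 weeks, 92.62 to 93.13 at 10 weeks and 92.70 to 92.83 at 12 weeks. Of 6 markers of neuroblasts 5 fell, with a sum of 57.84 to 58.29 at 4 weeks, 54.79 to 55.12 at 6 weeks, 53.10 to 53.67 at 8 weeks, 51.79 to 51.82 at 10 weeks and 50.94 to 50.97 at 12 weeks. The endothelial sums, given above, were not in order of age. The part of any of these cells in the fall of Id3 was not tested.

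The sequences before the Id genes are shown because these genes are the pathway's classical targets, and 1 of them passed the trend. RefSeq's table for GRCm38.p6 gave a promoter window for 29 of the 41 genes, among them Id2, Id3 and Id4. The 250 bases before the start of each are printed 5′ to 3′ on the gene's strand, from chr12:25096093-25096342 (minus strand) for Id2, chr4:136143572-136143821 (plus strand) for Id3 and chr13:48260866-48261115 (plus strand) for Id4. Capitals mark GGCGCC, a GC-rich sequence known from BMP response elements, and GTCT or its reverse complement AGAC, the core that Smad3 and Smad4 bind; both were searched on both strands and do not overlap here.
Id2: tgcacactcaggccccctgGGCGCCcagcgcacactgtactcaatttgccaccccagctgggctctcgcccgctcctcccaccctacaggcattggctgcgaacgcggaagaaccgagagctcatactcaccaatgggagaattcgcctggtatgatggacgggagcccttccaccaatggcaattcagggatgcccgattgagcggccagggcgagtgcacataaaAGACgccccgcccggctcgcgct
Id3: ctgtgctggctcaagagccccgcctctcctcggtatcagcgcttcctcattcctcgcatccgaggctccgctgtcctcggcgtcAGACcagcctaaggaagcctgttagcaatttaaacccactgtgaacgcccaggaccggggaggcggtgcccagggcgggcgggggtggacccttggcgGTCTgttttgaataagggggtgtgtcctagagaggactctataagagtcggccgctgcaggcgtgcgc
Id4: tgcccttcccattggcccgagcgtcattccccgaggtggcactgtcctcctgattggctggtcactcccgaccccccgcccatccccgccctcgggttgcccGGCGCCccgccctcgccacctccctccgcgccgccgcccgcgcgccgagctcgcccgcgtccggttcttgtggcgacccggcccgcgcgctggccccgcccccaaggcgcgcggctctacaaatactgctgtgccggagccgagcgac
GGCGCC occurred once each before Id2 and Id4 and not before Id3, and in 9.59% of 32851 such windows over the annotation. GTCT occurred 2 times before Id3, once before Id2 and not before Id4, and in 82.9% of all windows. The palindrome GTCTAGAC, found in 0.167% of windows, was before none of the 29 genes. A match is a description of these letters only, and elements outside the window were not searched.

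Few other genes of the pathway passed. In the 6 lists of further ligands, co-receptors, modulators, response genes and Id partners, 98 of 106 genes were measured, and 2 fell and 0 rose in the trend, where 0.673% of all genes fell and 0.147% rose. Both are basic helix-loop-helix factors of the oligodendrocyte lineage that Id proteins are known to oppose: Olig2 (−0.50 ± 0.08, limma adjusted p = 0.014) and Olig1 (−0.32 ± 0.06, 0.034). Olig2 was not called without both 12-week arrays (0.20), both 4-week arrays (0.19), 4 weeks replicate 1 (0.086) or 12 weeks replicate 2 (0.059), and Olig1 in 12 of 23 alternatives. The other 5 measured genes of that list also had negative changes, among them Neurod1 (−0.41 ± 0.12) and the E proteins Tcf3 (−0.20 ± 0.06) and Tcf4 (−0.13 ± 0.05), none of which passed. The F-test and the comparison of 12 with 4 weeks called 0 of the 98 in limma. At an unadjusted p under 0.05 the trend held 15 of the 98, near the 11.7% of all genes.

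Of 18 further ligands none passed. Inha, the inhibin alpha subunit that pairs with the beta subunits to oppose activin, came nearest (−0.41 ± 0.09, limma adjusted p = 0.055) and passed in 7 of 23 alternatives. It stood at 9.21 and 9.02 at 4 weeks, 9.25 and 9.05 at 6 weeks, 9.02 and 9.09 at 8 weeks, 8.79 and 8.87 at 10 weeks and 8.73 and 8.80 at 12 weeks. Both 12-week arrays were below both 4-week arrays. Amh had 0.23 ± 0.11 and Gdf7 0.10 ± 0.09; 10 of the 18 were dim. Of 7 other receptors and co-receptors none passed, with −0.11 ± 0.06 for Rgma and 0.10 ± 0.07 for Rgmb, BMP co-receptors of the repulsive guidance family, and 0.11 ± 0.07 for Eng, the endothelial co-receptor endoglin.

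None of 30 extracellular modulators passed. Itgav, the integrin subunit that helps to release latent TGF-beta, had 0.28 ± 0.06 (limma adjusted p = 0.055) and passed in 5 alternatives. Fstl1, a follistatin-like glycoprotein, had −0.28 ± 0.06 (0.064) and passed in 3, and Bmper, an extracellular BMP modulator, had −0.29 ± 0.07 (0.085) and passed in 2. None of 24 intracellular modulators passed. The kinase gene Map3k7, or TAK1, and its partner Tab1 had −0.27 ± 0.07 (limma adjusted p = 0.10, passed in 3 alternatives) and −0.25 ± 0.06 (0.091, passed in 1), and Bambi, a pseudoreceptor, had 0.26 ± 0.09 (0.25). Of 12 further response genes none passed. Msx2 had −0.19 ± 0.14, Fn1 0.23 ± 0.18 and Col1a1 −0.09 ± 0.08.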

How the data were processed

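Dentate gyrus RNA was labelled with a whole-transcript terminal labelling kit for Affymetrix arrays, per the labels' protocols. The deposited values were read as log2 levels of probe sets, since all arrays together span 2.50 to 15.0 in fractional steps; the log base and the software that made them are not given in the sources used here. The genome build was mm10, per the submitters' processing notes. Of 25254 probe sets, 21496 name 1 gene in the platform annotation, 1565 several and 2193 none. The probe set of highest mean was used per gene, giving 19752 genes, and dim genes were kept. Tests used limma 3.58.1 in R 4.3.3, two-sided, with Benjamini-Hochberg adjustment over all genes and a threshold of 0.05: a slope on weeks of age (residual degrees of freedom 8) and a model with each age as a level (5) for the F-test, 12 against 4 weeks and the steps. Pairs of genes were compared by an exact permutation test over 113400 orders of age (smallest possible p 1.8e-05); their intervals come from the regression of the difference on age. The fits were also run on simulated data with independent normal values and added linear changes. Those data lack the outlying arrays of the real series, so they check the code only and do not bear on the calls. No batch or scan date is given, and the number of arrays limits the precision of all values.

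The genes and lists were chosen with earlier results of these data known. Every array value is given for genes past a test and for the 3 others of smallest trend p in each role; of the wider lists, genes past a test and the 3 others of smallest p are named. Same-numbered arrays of different ages did not deviate together (correlations of deviations from −0.34 to 0.16 over 10 pairs of ages), so replicate numbers were not treated as pairs. The alternatives are listed with their effect at the end.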

Additional observations from a re-analysis of the deposited data

How the results depend on the processing

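Of the 41 genes 3 passed the trend. The count was 1 without both 12-week arrays, 1 without both 4-week arrays, and from 1 to 3 without single arrays, where Bmp4 passed each time; it was 4, with Smad3 added, with a trended variance. For 12 against 4 weeks it was 1 in place of 2 with the replicate block and 1 with the choroid plexus covariate, 3, with Smad3 added, with quantile normalization, without the dimmest 30% of genes, with a trended variance and with array weights, and from 1 to 2 without single arrays. For the F-test it was 3 in place of 1 with a trended variance, 2 without 6 weeks replicate 1 and 8 weeks replicate 1, and from 0 to 1 without single arrays. For the steps it was 0, and from 0 to 1 without single arrays. The replicate block changed no other of these counts. Over all genes the trend called 162, but 51 without the 12-week arrays, 7 without the 4-week arrays, 337 without the dimmest 30%, 350 with a trended variance, 417 with array weights and 35 to 279 without single arrays. For 12 against 4 weeks the count of 102 was 66 with the replicate block, 64 with the choroid plexus covariate, 210 without the dimmest 30%, 303 with a trended variance, 261 with array weights and 13 to 188 without single arrays. For the F-test the count of 33 was 13 with the replicate block, 19 with the choroid plexus covariate, 69 without the dimmest 30% or with array weights, 151 with a trended variance and 5 to 50 without single arrays. The cause of the moves was not tested, save that fits without arrays hold fewer samples. In 15 of the 41 genes and in Gdf7, Msx2 and Fn1, none of them called, the sign of the trend changed in some fit. Without the 12-week arrays the trend was −0.060 for Bmp6, −0.010 for Tgfb3, −0.0042 for Bmpr2, −0.082 for Acvr1, −0.0076 for Tgfbr2, 0.10 for Chrd, 0.022 for Grem1, −0.0047 for Smad2, −0.035 for Smad7, 0.13 for Msx2 and −0.055 for Fn1. Without the 4-week arrays the trend was −0.31 for Bmp6, 0.063 for Inhbb, −0.078 for Tgfb1, −0.094 for Smad6 and −0.014 for Gdf7. With quantile normalization the trend was 0.023 for Bmp7, 0.0059 for Chrd and 0.028 for Smad5. With median centring the trend was 0.0044 for Bmp7 and 0.0073 for Smad5. With the choroid plexus covariate the trend was 0.025 for Bmp7. Without 6 weeks replicate 1 and 8 weeks replicate 1 the trend was 0.051 for Bmp7 and 0.00082 for Smad5. On log2 of age the trend was 0.021 for Bmp7. Without single arrays, values ran from −0.30 to 0.025 for Bmp5, −0.086 to 0.23 for Bmp6, −0.12 to 0.066 for Bmp7, −0.090 to 0.048 for Inhbb, −0.017 to 0.068 for Tgfb1, −0.0030 to 0.081 for Bmpr2, −0.0074 to 0.071 for Acvr1, −0.057 to 0.027 for Chrd, −0.12 to 0.0026 for Grem1, −0.053 to 0.021 for Smad5, −0.0040 to 0.13 for Smad6 and −0.041 to 0.13 for Smad7. Array weights, robust variances, the mean over probe sets and leaving out the dimmest 30% of genes gave 3 genes past the trend each, as did median centring and quantile normalization. Signal near background limits Bmp2 and 13 of the 98 list genes, whose changes may be understated.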
